A study of Sus scrofa with 6 samples.

Results

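S100A8, S100A12 and LCN2 encode antimicrobial proteins that neutrophils are best known for, and their RNA levels were measured in cultured pig bone marrow cells. The members were chosen by name, with the probe set of highest mean over the 6 arrays standing for each gene. All 3 were found, each with exactly 1 probe set that the platform annotation ties to a single symbol, among 10872 named genes and 27558 probe sets. The cultures were primary mesenchymal stem cells, the plastic-adherent stromal cells of marrow, and their donors were American Yorkshire pigs, females at an age of 4 months, with no genetic change or drug named for any group. For 3 cultures the marrow came from the mandibular symphysis, the front midline of the jaw, and for 3 from the tibia, all at passage 0 and grown to 80% confluence in alpha-MEM with 20% FBS. Both sites were sampled in 3 pigs, per the design text, and no label ties a replicate number to a pig. The labels call the cultures biological replicates. Marrow was plated without sorting, so blood-lineage cells that adhere could be carried along. In such bulk cultures, fewer cells of a type and less RNA per cell cannot be told apart.

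S100A8 and S100A12 belong to the S100 family of small calcium-binding proteins. S100A8 pairs with S100A9 to form calprotectin, which starves microbes of zinc and manganese, and S100A12, or calgranulin C, also binds zinc and copper. Released outside the cell, these proteins act as alarm signals through the receptors TLR4 and AGER (RAGE). LCN2, or neutrophil gelatinase-associated lipocalin, captures bacterial siderophores and so withholds iron. It is stored in neutrophil granules bound to MMP9, but epithelial cells, adipocytes, macrophages and osteoblasts also make it, usually when interleukin-1, interleukin-17 or interleukin-6 signals reach NF-kB and C/EBP factors. In the gene order of the pig assembly Sscrofa11.1, S100A8, S100A12 and S100A9 are consecutive protein-coding genes, while LCN2 lies on another chromosome, next to PTGES2.

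Values are log2 levels after RMA, a method that corrects background, equalises the arrays and summarises probes. A difference of 1 is therefore 2-fold, and levels of different probe sets are not compared as RNA amounts. A percentile, quartile or median only places a level among all probe sets of its array. Array medians lay between 5.628 and 5.712, lower quartiles between 3.855 and 3.941 and upper quartiles between 7.472 and 7.551. The deposited values hold no measure of detection, so a level under the lower quartile cannot be separated from background. On 2 arrays, genes of body position stood apart from the site label. HOXA7, a trunk and limb patterning gene, measured 5.26 on mandibular 1, 8.40 on mandibular 2 and 5.23 on mandibular 3, against 8.01 on tibial 1, 7.92 on tibial 2 and 5.89 on tibial 3. ALX1, a gene of craniofacial mesenchyme, measured 8.08, 3.86 and 7.44 on mandibular 1 to 3 and 3.90, 3.54 and 7.97 on tibial 1 to 3. The arrays labelled mandibular 2 and tibial 3 thus had levels near those of the other site for both genes, and the members' differences are given with and without them. Because these 2 arrays were picked by levels in the same data, the fits without both are descriptions and not tests of the sites.

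No probe set passed the test between the labelled sites. Of 27558 tested with limma, 0 (0%) had an adjusted p under 0.05, with 0.9995 as the minimum. An unadjusted p under 0.05 was found for 836 (3.03%), and the fit without moderation also gave 0 calls. None of the members was called, with adjusted p = 0.9995 for each in limma, and none had an unadjusted p under 0.05. All differences below are mandibular minus tibial and below 0 for each member, while the median difference of all probe sets was 0.004.

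S100A12 varied most among the members. It measured 3.34, 3.58 and 3.69 on mandibular 1, 2 and 3, and 7.41, 5.34 and 3.74 on tibial 1, 2 and 3. The mandibular levels all lay below the lower quartile of their arrays, as did the level on tibial 3, so a signal above that mark was seen on tibial 1 and tibial 2 alone. Among all probe sets of its array the level stood at percentile 74.2 on tibial 1, 45.5 on tibial 2 and from 17.9 to 23.0 elsewhere. The sites did not overlap, but the gap from mandibular 3 to tibial 3 was 0.04. Such a lack of overlap with lower mandibular values was found for 983 of all probe sets (3.57%). The tibial values spanned 3.67 and the mandibular values 0.35, and no fold is given because the lower levels are not separable from background.

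The mandibular mean of S100A12 was 3.54 ± 0.18 (SD, n = 3), and the tibial mean was 5.49 ± 1.84 (SD, n = 3). The difference was -1.96 (SE 0.83, 95% interval -3.95 to 0.03). Its unadjusted p was 0.0529 in limma, and a two-sided exact permutation test of the same values gave 0.1, the smallest it can give. The difference was -1.00 without tibial 1. Without tibial 3 it was -2.84 (SE 0.56, limma adjusted p = 0.208), and without both mandibular 2 and tibial 3 it was -2.86 (SE 0.65, limma adjusted p = 0.186). Without mandibular 2 alone it was -1.98.

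LCN2 lay above the array median on every array. It measured 8.78, 7.53 and 7.51 on mandibular 1, 2 and 3, and 9.32, 10.30 and 8.03 on tibial 1, 2 and 3. Among the probe sets of each array these levels stood between percentiles 74.4 and 96.4. The highest level was on tibial 2 and the lowest on mandibular 3, 6.91-fold apart. The sites overlapped, because mandibular 1 lay 0.75 above tibial 3. Cultures of one site differed by up to 1.27 in the jaw and 2.27, or 4.81-fold, in the tibia.

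For LCN2 the jaw cultures averaged 7.94 ± 0.73 (SD, n = 3), and the tibial cultures averaged 9.22 ± 1.14 (SD, n = 3). The difference of -1.28 (SE 0.61, 95% interval -2.74 to 0.19), or 2.42-fold, had an unadjusted limma p = 0.0774, and the two-sided exact permutation test gave p = 0.2. The difference was -0.74 without tibial 2 and -1.87 (SE 0.48, limma adjusted p = 0.324) without tibial 3, the omissions that moved it most. It was -1.07 without mandibular 2 and -1.66 (SE 0.51, limma adjusted p = 0.324) without both. When mandibular 1 was left out it was -1.70.

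S100A8 varied least among the members. Its levels were 3.30, 3.01 and 3.06 on mandibular 1, 2 and 3, and 3.76, 3.27 and 3.46 on tibial 1, 2 and 3. Every level lay below the lower quartile of its array, between percentiles 14.7 and 22.7, and cannot be separated from background. The sites overlapped by 0.03, with tibial 2 just under mandibular 1. The mandibular mean was 3.12 ± 0.16 (SD, n = 3), and the tibial mean was 3.50 ± 0.25 (SD, n = 3). The sites had a difference of -0.37 (SE 0.16, 95% interval -0.76 to 0.02), with an unadjusted limma p = 0.0601 and a two-sided exact permutation p = 0.2. The whole range over the 6 arrays was 0.75, beside a median range of 0.527 for all probe sets. Without both mandibular 2 and tibial 3 the difference was -0.33, without tibial 3 alone -0.39 and without mandibular 2 alone -0.31. It was -0.24 without tibial 1.

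**Figure D1:**
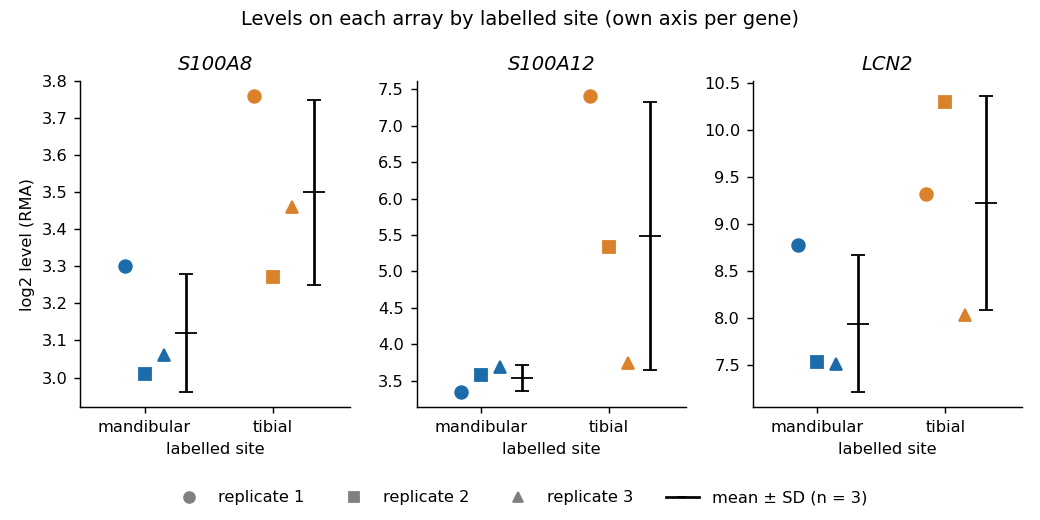
Log2 level (y axis, a separate scale for each gene) of S100A8, S100A12 and LCN2 by labelled site (x axis); each symbol is 1 array, its shape gives the replicate number, and the black bars are the mean ± SD of 3 arrays. S100A12 lies above its level on the other arrays on tibial 1 (7.41) and tibial 2 (5.34), LCN2 is highest on tibial 2 (10.30), and S100A8 spans 3.01 to 3.76.

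S100A12 and LCN2 had their highest levels on the same arrays, in opposite order. S100A12 was highest on tibial 1 and then tibial 2, and LCN2 on tibial 2 and then tibial 1. The order of S100A8, and of S100A12 on the other 4 arrays, is among levels not separable from background and is not read. After each gene was centred on its own mean over the 6 arrays, S100A12 stood at 2.89 on tibial 1 and 0.82 on tibial 2, and LCN2 at 0.74 and 1.72. The root mean square difference between the centred values of S100A12 and LCN2 was 1.11, beside 1.45 for the centred values of S100A12 alone and 1.01 for those of LCN2 alone.

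Most listed macrophage genes had their highest levels on the same tibial arrays as S100A12 and LCN2. In the jaw cultures their mean was ordered differently from LCN2. The mean level of 18 measured macrophage and monocyte genes was 5.47, 6.56 and 5.43 on mandibular 1, 2 and 3, and 8.89, 8.06 and 5.89 on tibial 1, 2 and 3. In 16 of the 18 the difference was below 0, and in 16 both tibial 1 and tibial 2 lay above the other 4 arrays, as they did for S100A12, LCN2 and 7.86% of all probe sets. CD86 and LGMN were the exceptions in both counts. C1QB, a chain of complement C1q made by macrophages, measured 5.55, 8.45 and 5.26 on mandibular 1 to 3 and 10.87, 10.35 and 7.04 on tibial 1 to 3. CD14 differed little in the jaw, at 7.23, 7.29 and 7.17 on mandibular 1 to 3. Among the jaw cultures MARCO, CD86, LGMN and FCGR1A were not highest on mandibular 2, and CD86 measured 9.85, 7.80 and 9.87. On mandibular 2 the mean of the macrophage list was the highest of the jaw cultures, while LCN2 there was 7.53, within the range of the jaw cultures. S100A12 there was 3.58, under the lower quartile as in every jaw culture, so it cannot show whether it follows the list. On mandibular 1 the list was 5.47 while LCN2 was 8.78, above its level on tibial 3. The part of macrophage content in the levels of S100A12 and LCN2 was not tested.

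**Figure D2:**
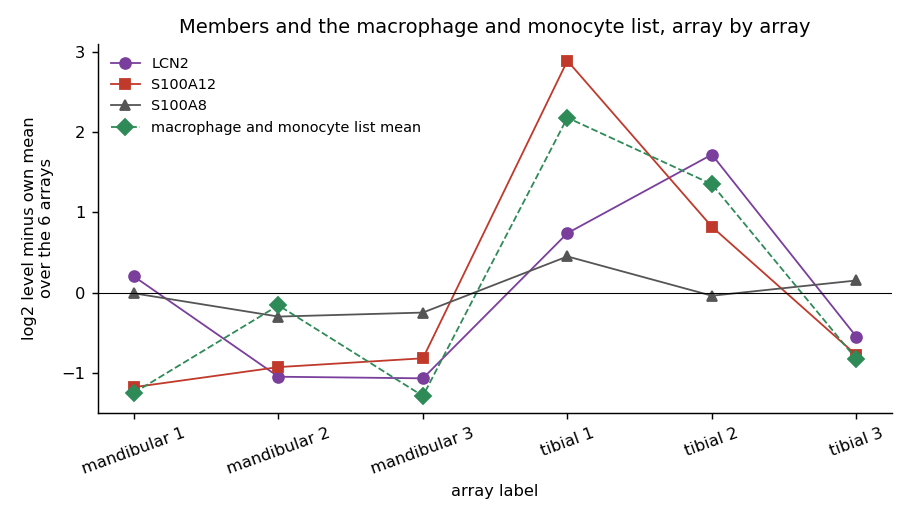
Log2 level minus the mean over the 6 arrays (y axis) of LCN2, S100A12, S100A8 and the mean of 18 macrophage and monocyte genes (dashed) on each array (x axis, by label); lines only guide the eye, since arrays have no order. On tibial 1 S100A12 stands at 2.89 and LCN2 at 0.74, and on tibial 2 at 0.82 and 1.72. On mandibular 2 the macrophage list is at -0.16 and LCN2 at -1.05, while S100A12 (-0.93) is not separable from background there.

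S100A9, the calprotectin partner of S100A8, was likewise not separable from background on any array. It measured 3.55, 3.23 and 3.12 on mandibular 1 to 3 and 3.64, 3.22 and 3.32 on tibial 1 to 3, all under the lower quartile, with a difference of -0.09 (SE 0.17). S100A12, which lies between the pair in the gene order, was thus the only measured gene of the 3 with a level above the lower quartile on any array. Of 19 listed S100 genes, 13 were measured, 0 passed in either direction, 5 had a difference below 0 and 8 above, and their median was 0.01. Apart from S100A12, S100A4 alone had a range of at least 1. S100A4, a fibroblast and motility-linked S100 gene, measured 9.30, 9.62 and 10.21 on mandibular 1 to 3 and 8.53, 10.02 and 10.81 on tibial 1 to 3, so it was lowest on tibial 1, where S100A12 was highest. S100A3 differed by 0.32 (SE 0.13) without overlap, as 3.35% of all probe sets did on the higher mandibular side, and S100A16, a widely expressed member, by 0.18 (SE 0.14). S100A11, another widely expressed S100 gene, ranged from 11.40 to 11.78.

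The lipocalins, carriers of small hydrophobic molecules, did not share the pattern of LCN2. Of 19 listed, 14 were measured, 0 passed, 7 had a difference below 0 and 7 above, and the median was 0.01. RBP4, the plasma carrier of retinol, measured 6.59, 6.47 and 6.54 on mandibular 1 to 3 and 5.12, 5.27 and 6.75 on tibial 1 to 3. Its lowest levels were on the arrays where LCN2 was highest, and its difference was 0.82 (SE 0.42), or 1.37 without both mandibular 2 and tibial 3. ORM1, an acute-phase plasma protein gene, differed by 0.46 (SE 0.14) without overlap, and had the smallest unadjusted p of the list (0.0123 in limma across all probe sets, not called after adjustment). SAL1, salivary lipocalin, differed by 0.24 (SE 0.15).

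**Figure D3:**
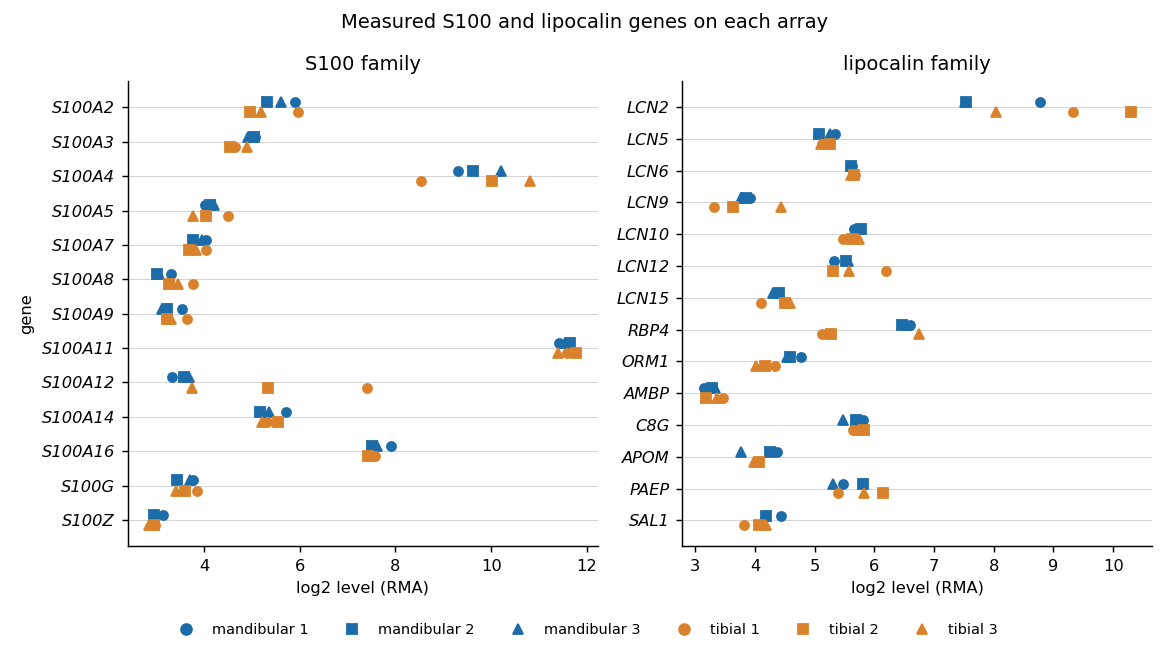
Log2 level (x axis) of each measured S100 gene (left) and lipocalin gene (right) on each array; blue symbols are mandibular and orange symbols tibial cultures, and the shape gives the replicate. S100A12 spans 3.34 to 7.41 while S100A8 and S100A9 stay between 3.01 and 3.76, and LCN2 spans 7.51 to 10.30 while RBP4 has its lowest values on tibial 1 and tibial 2.

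Other neutrophil genes ran from levels under the lower quartile on every array to levels above the upper quartile on some. Of 37 listed names of neutrophil granule and cytosolic proteins, some of them spellings of the same pig gene, 18 were measured, counting the members. None passed, 16 had a difference below 0 and 2 above, and the median was -0.23, or -0.57 without both mandibular 2 and tibial 3. Of these 18, 9 lay under the array median on every array, and S100A8, S100A9 and CRISP3 lay under the lower quartile on every array. MPO, the myeloperoxidase of primary granules, measured 4.09, 4.52 and 4.44 on mandibular 1 to 3 and 4.40, 5.23 and 4.50 on tibial 1 to 3, under the median throughout. AZU1, an antimicrobial protein of the same granules, measured 4.87 to 4.97 in mandibular and 4.87 to 5.55 in tibial cultures. NPG4, a protegrin peptide gene of pig neutrophils, measured 5.05, 5.13 and 5.06 on mandibular 1 to 3 and 5.46, 5.92 and 5.14 on tibial 1 to 3, without overlap (difference -0.43, SE 0.20). Of the 18 measured genes of this list, 11 were highest on tibial 1, 4 on tibial 2, 2 on tibial 3 and 1 on mandibular 2. Those highest on tibial 2 were LCN2, MPO, AZU1 and NPG4. ELANE, LTF, CAMP and CSF3R had no probe set with a single symbol and were not analysed here.

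Of the 18 granule genes, 9 had a range of at least 1, counting S100A12 and LCN2. Among them, MMP9 and SRGN are also expressed by macrophages. MMP9, the gelatinase that binds LCN2, measured 7.32, 11.13 and 7.61 on mandibular 1 to 3 and 12.94, 12.29 and 9.47 on tibial 1 to 3, a difference of -2.88 (SE 1.26). SRGN, the proteoglycan serglycin that packs granules, measured 3.18, 6.21 and 3.73 against 9.06, 8.13 and 4.51, a difference of -2.86 (SE 1.30). On mandibular 1 and mandibular 3 SRGN lay under the lower quartile. Both MMP9 and SRGN were higher on mandibular 2 than on the other jaw arrays, unlike LCN2. CHI3L1, a chitinase-like protein gene, was highest on mandibular 2, at 7.63, and differed by 0.29 (SE 0.67). CTSC, the protease that activates granule enzymes, and PTX3, a soluble pattern receptor, differed by -0.21 (SE 0.52) and -0.25 (SE 0.36). LYZ, or lysozyme, measured 2.91, 3.80 and 2.65 on mandibular 1 to 3 and 6.10, 7.32 and 2.85 on tibial 1 to 3, so that like LCN2 it was highest on tibial 2. On the jaw arrays and tibial 3 LYZ lay under the lower quartile and was not separable from background. Its difference was -2.30 (SE 1.07), and LYZ was the only gene with a difference beyond 1 in either direction among 8 measured other antimicrobial genes, of which 0 passed and 7 had a difference below 0 (median -0.16).

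Of 20 neutrophil surface and lineage genes, 9 were measured and 0 passed, with a median of -0.11. In 8 of the 9 the level lay under the array median on every array. CXCR2, the chemokine receptor that calls neutrophils to tissue, measured 3.76 to 3.88 in mandibular and 3.83 to 4.11 in tibial cultures. CEBPE, the transcription factor for late granules, differed by -0.10 (SE 0.19), and CD177, a neutrophil surface protein, by -0.01 (SE 0.11). ITGAM, the CD11b integrin that macrophages share, differed by -0.33 (SE 0.12) without overlap, and TREM1, an amplifier of myeloid inflammation, by 0.57 (SE 0.20) without overlap, with limma adjusted p = 0.9995 for both. CEBPA, a factor for early myeloid cells and for fat cells, was the exception to the low levels, at 7.19 and 6.92 on tibial 1 and tibial 2 and between 5.87 and 6.19 on the other arrays. Of the NADPH oxidase genes, NCF1 and NCF4 were measured, with differences of -0.29 (SE 0.27) and -0.58 (SE 0.32). Markers that define neutrophils thus differed in level: MPO, CXCR2, CD177 and CEBPE were under the median on all 6 arrays, with MPO and CEBPE above the lower quartile, and NPG4 was above the median on tibial 2. Neutrophil content was not tested, and the name of the gene set is used here for its proteins.

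**Figure D4:**
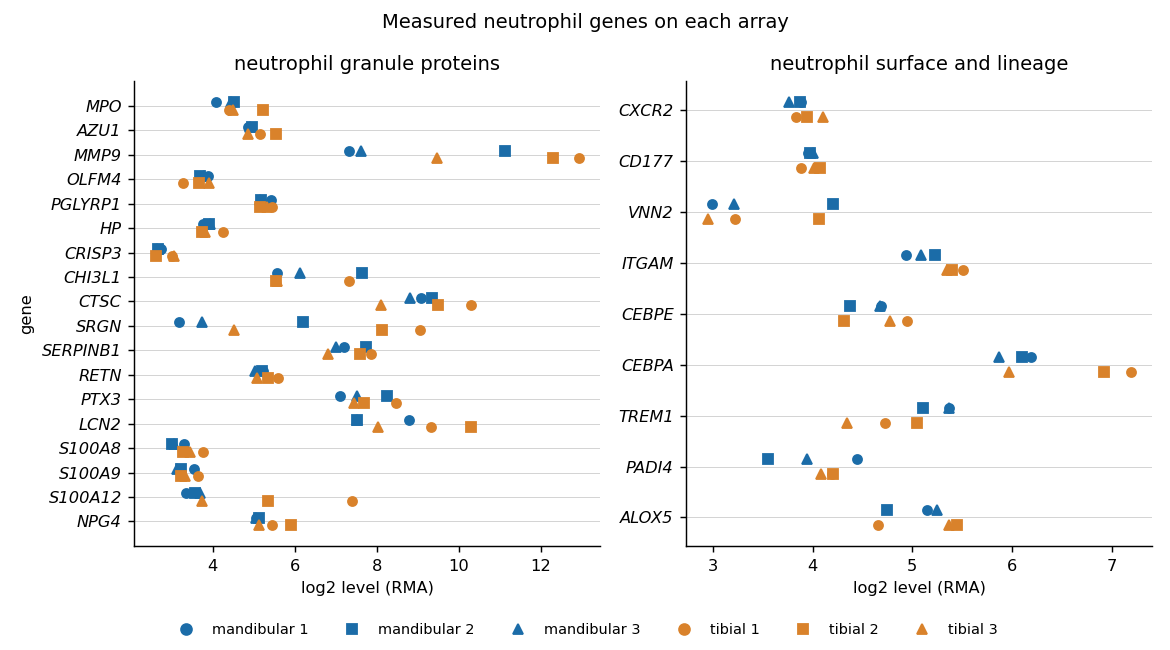
Log2 level (x axis) of each measured neutrophil granule gene (left) and neutrophil surface or lineage gene (right) on each array, with colours for the site and shapes for the replicate. MPO, CXCR2, CD177 and CEBPE stay between 3.76 and 5.23, while MMP9 spans 7.32 to 12.94, SRGN 3.18 to 9.06, S100A12 3.34 to 7.41 and LCN2 7.51 to 10.30.

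Receptors and partners of the members were measured for 10 of 13 listed genes. All 10 had a difference below 0, 0 passed, and the median was -0.26. TLR4, the receptor through which S100A8 signals, measured 3.41, 5.01 and 3.14 on mandibular 1 to 3 and 7.25, 7.12 and 4.08 on tibial 1 to 3, a difference of -2.30 (SE 0.93). Its co-receptor gene CD14 differed by -0.77 (SE 0.29) without overlap, and the fatty acid and pattern receptor CD36 by -3.22 (SE 1.55). TLR4 and CD36 lay under the lower quartile on mandibular 1 and mandibular 3, and CD36 also on tibial 3, where they were not separable from background. TLR4, CD14 and CD36 are also macrophage genes, and on tibial 1 and tibial 2 all 3 were higher than on any other array. AGER, the S100A12 receptor, measured 5.72 to 6.05 in mandibular and 5.97 to 6.18 in tibial cultures. SLC22A17, a receptor for LCN2, measured 9.11, 8.65 and 8.51 on mandibular 1 to 3 and 9.04, 9.18 and 8.93 on tibial 1 to 3. LRP2, the megalin receptor that takes up LCN2 in kidney, stayed between 3.07 and 3.77, below the lower quartile.

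Genes of iron handling, the process LCN2 acts on, were measured for 7 of 15 listed, with 0 passed and a median of -0.09. SLC11A1, the NRAMP1 metal pump of macrophage phagosomes, measured 4.50, 5.61 and 4.52 on mandibular 1 to 3 and 9.37, 7.35 and 4.91 on tibial 1 to 3, a difference of -2.33 (SE 1.04). Like S100A12 it was highest on tibial 1. TFRC, the transferrin receptor, differed by 0.25 (SE 0.13) and HAMP, the iron hormone hepcidin, by -0.23 (SE 0.17). The ferritin chain genes FTH1 and FTL differed by -0.02 (SE 0.15) and -0.09 (SE 0.22).

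Signals and factors that induce LCN2 were measured for 22 of 26 listed genes, with 0 passed, 13 differences below 0 and a median of -0.06. IL18, an inflammasome cytokine, differed by -0.90 (SE 0.36), but its highest level, 7.09, was on tibial 3. IL22, a cytokine of barrier immunity, stayed at 2.90 to 3.55, below the lower quartile. IL17RC, an interleukin-17 receptor chain, differed by -0.32 (SE 0.20) and IL1R1, the interleukin-1 receptor, by 0.31 (SE 0.22). The C/EBP factor gene CEBPD measured 9.10, 8.54 and 8.55 on mandibular 1 to 3 and 9.20, 8.70 and 8.47 on tibial 1 to 3, so its highest levels were on tibial 1 and mandibular 1. NFKBIZ, a co-factor of NF-kB at the LCN2 gene, measured 8.77, 8.86 and 8.19 against 8.64, 8.89 and 8.14. IL6 was highest on tibial 1, at 9.58, and lay between 7.71 and 8.53 on the other arrays. The interleukin-1 gene IL1A had the widest range of the list, 3.22. It was highest on mandibular 2, at 7.48, where LCN2 was 7.53, and lay between 4.26 and 6.54 on the other arrays. TNF was highest on tibial 1, at 5.26, and then on mandibular 2, at 4.95. Induction of LCN2 by these signals was not tested.

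Markers of other cells that can express the members gave these values. The epithelial list had 11 of 14 genes measured, 0 passed, a median of -0.09, and list means from 4.66 to 4.95 in mandibular and 4.80 to 4.95 in tibial cultures. EPCAM stayed between 3.50 and 4.02, while KRT19 stayed between 5.86 and 6.06, above the median of every array. ESRP1 ranged over 2.93, with 5.39 on mandibular 3 and 5.73 on tibial 3 as its highest levels. KRT8 differed by -0.33 (SE 0.16). Of 9 fat cell genes 6 were measured, with list means of 4.79, 5.66 and 4.74 on mandibular 1 to 3 and 6.44, 5.86 and 4.48 on tibial 1 to 3. In that list LPL, a lipase that macrophages also make, measured 9.45 on mandibular 2, 10.99 on tibial 1 and 9.07 on tibial 2, and 4.42 to 4.62 on the rest. Lymphocyte list means ran from 4.06 to 4.37 and erythroid list means from 3.32 to 3.82. Endothelial list means were 4.33 to 4.45 in mandibular and 4.28 to 4.88 in tibial cultures. Of 4 endothelial genes measured, 3 had a difference below 0, among them PECAM1, also a leukocyte gene, at -0.55 (SE 0.16) without overlap. KDR differed the other way, by 0.45 (SE 0.19) without overlap, but lay under the lower quartile on every array. Of 13 stromal genes 11 were measured, with 0 passed, 8 differences below 0 and a median of -0.10, and 5 had a range of at least 1. COL1A1 and THY1 stayed at 13.24 to 13.49 and 10.50 to 10.70, while the adhesion molecule gene VCAM1 ranged over 5.85, NT5E (CD73) over 2.08 and the matrix proteoglycan gene DCN over 1.99. ENG and LUM ranged over 1.11 and 1.08, with differences above 0, of 0.52 (SE 0.23) and 0.08 (SE 0.32). VCAM1 was highest on tibial 1 and then tibial 2, and differed by -2.55 (SE 1.31).

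The genes whose centred values came closest to those of each member were then listed, as a description over 6 arrays. For S100A12, among 1622 genes with a range of at least 1, these were RBM47, SCIN, PLEK, CD200R1 and GMFG, with root mean square differences from 0.22 to 0.34. PLEK, the leukocyte and platelet protein pleckstrin, measured 4.10, 4.13 and 3.76 on mandibular 1 to 3 and 7.82, 5.43 and 3.72 on tibial 1 to 3. On the jaw arrays and tibial 3, RBM47, SCIN and CD200R1 lay under the lower quartile, as S100A12 did. Closeness to S100A12 on those arrays is not read as shared expression. For LCN2 they were C1QTNF3, NREP, FMO1, MMP13 and TNFRSF8, from 0.25 to 0.44. C1QTNF3, a secreted C1q and TNF related protein gene, measured 6.33, 5.45 and 4.62 on mandibular 1 to 3 and 6.84, 8.05 and 5.51 on tibial 1 to 3. MMP13, a collagenase of cartilage and bone, measured 3.85, 3.90 and 2.93 against 4.44, 5.87 and 3.31. It lay under the lower quartile on mandibular 1, mandibular 3 and tibial 3, and FMO1 did on the jaw arrays and tibial 3. The lists for S100A12 and LCN2 had no gene in common. For S100A8 the closest of 2749 genes with at least its range were NECAB1, CRHBP, NKX2-1, TBC1D21 and NKX2-8, from 0.06 to 0.11. Their levels ran from 2.46 to 5.62, all below the array medians. Since S100A8 is not separable from background on any array, its list is not read as shared expression.

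**Figure D5:**
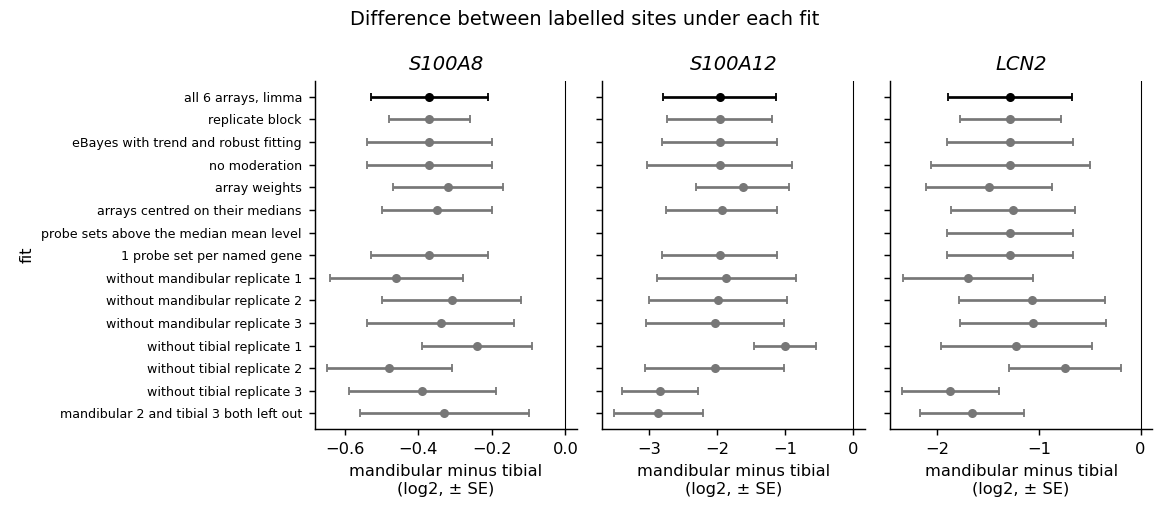
Difference between mandibular and tibial cultures (x axis, log2, ± SE) of S100A8, S100A12 and LCN2 under each fit (y axis); black is the fit on all 6 arrays. All values lie below 0, from -0.48 to -0.24 for S100A8, -2.86 to -1.00 for S100A12 and -1.87 to -0.74 for LCN2, and none passed the adjusted threshold.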

How the data were processed

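Deposited values were log2 levels of 27558 probe sets on 6 arrays. RMA, Transcriptome Analysis Console 3.0 and Affymetrix Expression Console are named in the submitters' processing notes. The settings, build and annotation behind the deposited log2 values are not stated there, so no coordinates are printed. In GEO's platform annotation 13157 probe sets had 1 symbol, 523 had several and 13878 had none, with 7 symbols updated by Entrez number. After placeholders were set aside, 11691 probe sets named 10872 genes. The test was limma 3.58.1 (R 4.3.3; lmFit, eBayes without trend), two-sided, with p-values adjusted by Benjamini-Hochberg over every probe set on the array and called under 0.05. The fit was tested on simulated data. Samples were grouped by title. The number of arrays limits the precision.

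The members and gene lists were chosen with earlier results of these data known, so lists are described by counts and medians. Genes named are the members, MPO, ELANE, LTF, CAMP, S100A9, CSF3R and CXCR2, up to 4 of each list by smallest unadjusted p, and the 5 closest in centred pattern to each member. Other genes named were chosen after their values were seen. Alternatives were a replicate block, other moderation, array weights, median centring, a filter on low levels, 1 probe set per gene, and omission of arrays.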

Additional observations from a re-analysis of the deposited data

How the results depend on the processing

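The differences of S100A8, S100A12 and LCN2 stayed below 0 in every alternative run, 13 for S100A8 and S100A12 and 14 for LCN2. No adjusted p passed. The replicate block, other moderation, the filter and 1 probe set per gene leave a difference unchanged, so they could not alter its direction. For S100A12 the sites did not overlap, so omitting arrays could not reverse it either. The number of runs is therefore not a measure of support. The smallest adjusted p in limma was 0.771, 0.186 and 0.324, and the largest was above 0.99 for each gene. With 1 array left out in turn, S100A8 ranged from -0.48 to -0.24, S100A12 from -2.84 to -1.00 and LCN2 from -1.87 to -0.74, and the count of called probe sets ranged from 0 to 2. Without both mandibular 2 and tibial 3, 195 probe sets were called, none of them a member. These 2 arrays were picked by gene levels in the same data, so those calls are not a test of the sites. The cause of the higher count was not tested. Whether replicate numbers pair the cultures stays unknown: deviations from the site means correlated at -0.033, 0.212 and 0.473 for numbers 1, 2 and 3, so not every pair exceeded 0.1. Mandibular 1 correlated best with tibial 3 (0.131) and mandibular 2 with tibial 1 (0.361). Mandibular 2 and tibial 3, where position genes stood apart from the label, correlated at -0.486. With the replicate number as a block, 0 probe sets were called, 1511 against 836 had an unadjusted p under 0.05, and S100A8, S100A12 and LCN2 differed by -0.37, -1.96 and -1.28 (limma adjusted p = 0.881, 0.902 and 0.902). S100A8 and S100A12 fell out under the filter on low levels. Other probe sets of a gene could not be tried, as each member has 1. Levels of S100A8, and of S100A12 outside tibial 1 and tibial 2, cannot be separated from background, which was not measured.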
